A study of Mus musculus with 35 samples.

Results

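The homeobox genes and other developmental regulators examined here were the genes whose symbols belong to 14 families of DNA-binding factors, namely Hoxa to Hoxd, Pax, Gata, Lhx, Tbx, Nkx, Irx, the relatives of Six3, Pitx, Dlx, Pou4f, Foxd, Foxa and Msx. They were chosen by symbol alone, and 122 of the 32863 genes kept in the count table belonged to them. The question was whether genes of this kind that are silent in adult striatum come on when Hdac2 is lost or when mutant huntingtin is present. RNA-seq of 35 mouse striata at 21.7 to 23.0 weeks of age, with 1 library per mouse, covered 4 genotypes: 8 mice were Htt+/+ Hdac2 WT, 7 were HttQ111/+ Hdac2 WT, 9 were Htt+/+ Hdac2 KO and 11 were HttQ111/+ Hdac2 KO, with males and females in each. The HttQ111 allele carries a long CAG repeat knocked into mouse huntingtin, with 110 to 144 repeats in these carriers and 7 in Htt+/+ mice. Hdac2 KO mice had 2 floxed Hdac2 alleles and the D9-Cre transgene, in which regulatory sequence of Ppp1r1b (DARPP-32) drives Cre in medium-spiny neurons from several weeks after birth, so other striatal cells kept Hdac2 and it was lost only after development. No Hdac2 WT mouse carried Cre, and an effect of Cre cannot be told apart from that of the deletion. The HttQ111 and D9-Cre lines were on C57BL/6J, and the floxed line came from a mixed background with 129 and was not fully backcrossed.

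These factors set the identity of cells and body regions in the embryo. Hox genes, lying in 4 clusters, specify position along the trunk and hindbrain and are kept off in the forebrain, where Polycomb complexes hold many such genes in a repressed chromatin state. Histone deacetylases such as HDAC2 remove acetyl groups that accompany active genes. Some members of the same families build the ventral forebrain itself: Dlx genes direct the formation of GABA neurons, Nkx2-1, Lhx6 and Lhx8 the interneurons of the medial ganglionic eminence, and Six3 the anterior forebrain.

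Libraries held 50970712 to 77867348 counts on genes, and the deepest was 1 HttQ111/+ Hdac2 KO library (replicate 1). Levels are given as CPM, counts scaled to the TMM-adjusted library size. Hdac2 itself, counted over the whole gene, spanned 95.5 to 111 CPM with Hdac2 WT and 89.4 to 101 CPM with Hdac2 KO. The deletion removes only some exons, so a count over the whole gene does not measure the loss. The authors reported that reads on the deleted exons were strongly depleted and that HDAC2 protein was lost in most striatal cells. Hdac1, the close relative of Hdac2, spanned 5.33 to 7.76 CPM with Hdac2 WT and 8.37 to 11 CPM with Hdac2 KO. Apart from 2 Hdac2 KO libraries, no extraction day was shared by the 2 Hdac2 genotypes. Of 9 medium-spiny neuron markers found in the table, Ppp1r1b and Tac1 rose with Hdac2 KO in both Htt genotypes, Drd2 fell in Htt+/+ mice, and the summed level of the 9 was 5720 to 9060 CPM in Hdac2 WT and 6430 to 8790 CPM in Hdac2 KO libraries. The D9-Cre transgene, carried by the Hdac2 KO mice alone, also holds parts of Ppp1r1b itself, introns and exons among them. Whether transgene reads add to the Ppp1r1b count was not tested. The choroid plexus marker Ttr ranged from 0.234 to 171 CPM over libraries. In whole tissue, a change in the number of cells of a type and a change in RNA per cell cannot be told apart.

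The label of silent genes fitted most members but not all. No read was counted in any of the 35 libraries for 32 of the 122 genes (26.2%, against 20.0% of all genes kept). A further 62 had counts but in no group reached 6 counts throughout, the filter used for testing. The other 28 (23.0%, against 52.8% of all genes) passed it in at least 1 group. None of the 38 Hox genes passed: 23 had no count and 15 had few. The Dlx family lay at the other end, with 5 of 6 genes passing, followed by Tbx with 7 of 13, Six3 and its relatives with 3 of 6, Lhx with 3 of 8 and Nkx with 5 of 14. Only 1 gene passed of the 9 Pax (Pax6), 6 Gata (Gata2), 6 Irx (Irx1), 4 Foxd (Foxd1) and 3 Msx genes (Msx1), and none of the 3 Pitx, 3 Pou4f and 3 Foxa genes.

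**Figure D1:**
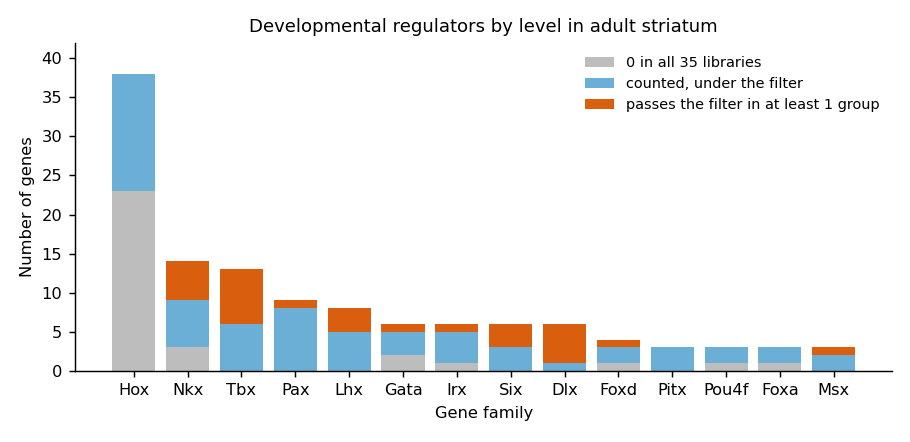
Number of genes in each of the 14 families, split by level in the 35 libraries (grey, no count in any library; blue, counted but under the filter; orange, passing the filter in 1 or more groups). The Hox bar holds 23 grey and 15 blue genes and no orange one, while 5 of the 6 Dlx genes are orange.

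The 32 genes without a count stayed at 0 in every Hdac2 KO and every HttQ111/+ library. They were the 23 Hox genes (Hoxa6, Hoxa9, Hoxa10, Hoxa11, Hoxa13, Hoxb1, Hoxb2, Hoxb7, Hoxb8, Hoxb9, Hoxb13, Hoxc6, Hoxc8 to Hoxc13 and Hoxd9 to Hoxd13), the blood and gut factors Gata1 and Gata5, the heart factors Nkx2-5 and Nkx2-6, the skeletal factor Nkx3-2, Irx4, the retinal ganglion cell factor Pou4f2, the neural crest factor Foxd3 and the endoderm factor Foxa2. A total of 0 over a group allows up to 3 counts, which amounts to 0.00682 CPM over the Htt+/+ Hdac2 WT libraries, 0.00746 over HttQ111/+ Hdac2 WT, 0.00596 over Htt+/+ Hdac2 KO and 0.00464 over HttQ111/+ Hdac2 KO, for counting error only. These limits take each count as a separate read. Most counts above 0 in the tier under the filter were even, so reads often came in pairs and limits for pairs would be higher. Genes of this tier were not detectable at this depth with or without Hdac2.

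The promoters of silent and expressed members held CpG in like numbers. CpG dinucleotides, C followed by G and so the same on both strands, were counted in promoter windows. Such sequence, 300 bases ending 50 bases after the start, was at hand for 82 of the 122 members from RefSeq on GRCm38.p6 (the first start listed was used). The number of CpG dinucleotides per 300 bases had a median of 16.5 in the 20 matched genes without a count, 20.0 in the 42 under the filter and 16.5 in the 20 that passed, against 13.0 over 17432 genes of the table. Promoters with 10 or more CpG made up 80.0%, 76.2% and 85.0% of these tiers and 56.7% of all. Single genes ranged from 4 to 45 CpG in the tier without a count and from 4 to 34 in the tier that passed. As examples, the 250 bases before the start are printed for 4 genes above the median of their tier. Hoxd13 and Foxd3 had no count (37 and 25 CpG per 300 bases). The neighbours Dlx1 and Dlx2 were expressed and varied together across libraries (27 and 29). The sequences are written 5′ to 3′ on the strand of the gene, with each CpG in capitals, and hold 31, 21, 22 and 24 of them.
Hoxd13 (chr2:74667975-74668224, plus strand): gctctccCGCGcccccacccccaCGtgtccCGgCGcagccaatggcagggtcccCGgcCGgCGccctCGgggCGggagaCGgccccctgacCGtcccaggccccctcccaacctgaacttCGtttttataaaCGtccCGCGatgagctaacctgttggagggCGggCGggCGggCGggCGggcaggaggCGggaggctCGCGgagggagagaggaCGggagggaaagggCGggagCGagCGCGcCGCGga
Foxd3 (chr4:99656049-99656298, plus strand): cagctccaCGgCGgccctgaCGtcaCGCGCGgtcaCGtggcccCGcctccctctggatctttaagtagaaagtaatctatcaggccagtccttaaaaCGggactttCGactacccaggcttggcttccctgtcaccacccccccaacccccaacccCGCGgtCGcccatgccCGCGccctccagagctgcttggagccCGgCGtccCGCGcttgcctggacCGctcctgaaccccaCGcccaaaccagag
Dlx1 (chr2:71529195-71529444, plus strand): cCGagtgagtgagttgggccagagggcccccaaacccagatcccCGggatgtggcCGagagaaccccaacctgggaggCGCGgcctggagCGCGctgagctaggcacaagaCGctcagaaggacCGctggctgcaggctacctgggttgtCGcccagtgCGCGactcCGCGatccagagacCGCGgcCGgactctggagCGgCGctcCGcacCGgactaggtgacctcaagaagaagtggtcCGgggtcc
Dlx2 (chr2:71546755-71547004, minus strand): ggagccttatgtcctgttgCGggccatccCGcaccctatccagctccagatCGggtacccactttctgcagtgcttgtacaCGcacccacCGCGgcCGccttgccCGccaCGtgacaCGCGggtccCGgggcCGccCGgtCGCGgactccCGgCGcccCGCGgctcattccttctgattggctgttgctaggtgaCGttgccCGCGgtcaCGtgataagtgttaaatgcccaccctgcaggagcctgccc

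Hox counts were few, and most came from 3 genes. All 38 genes together took 609 counts in 35 libraries, and Hoxd1 alone took 322 of them (52.9%). Hoxa7 followed with 97 and Hoxb4 with 88, and 11 genes had 12 or fewer each (Hoxa2, Hoxa3, Hoxa4, Hoxa5, Hoxb3, Hoxb5, Hoxb6, Hoxc4, Hoxc5, Hoxd3 and Hoxd8). By cluster the totals were 172 for Hoxa (chromosome 6), 99 for Hoxb (chromosome 11), 12 for Hoxc (chromosome 15) and 326 for Hoxd (chromosome 2). Hoxd1 (ENSMUSG00000042448, chr2:74762980-74765141 on GRCm38) had 0.0697 to 0.234 CPM (median 0.149) in Htt+/+ Hdac2 WT, 0.0702 to 0.279 (0.195) in HttQ111/+ Hdac2 WT, 0.041 to 0.243 (0.143) in Htt+/+ Hdac2 KO and 0.0536 to 0.388 CPM (0.107) in HttQ111/+ Hdac2 KO libraries. The 4 ranges overlapped, and its highest count, 30, came from the deepest library. No other Hox gene exceeded 10 counts in a library.

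The 62 genes under the filter had overlapping levels in the 4 genotypes. Their summed level was 1.17 to 1.99 CPM (median 1.5) in Htt+/+ Hdac2 WT, 1.45 to 2.46 (1.77) in HttQ111/+ Hdac2 WT, 1.25 to 2.08 (1.54) in Htt+/+ Hdac2 KO and 1.41 to 2.69 CPM (1.58) in HttQ111/+ Hdac2 KO libraries. These ranges overlap widely, and the highest sum again came from the deepest library. The number of them with a count in a library was 16 to 29 in Hdac2 WT and 19 to 31 in Hdac2 KO mice. Pooled over libraries, 29 of the 62 had a higher rate in Hdac2 KO mice (46.8%, against 53.3% of all 8953 genes under the filter), and 32 had a higher rate in HttQ111/+ mice (51.6%, against 52.4%). Counts were mostly even (89.6% of the values above 0), so that a value of 2 is often 1 read pair.

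**Figure D2:**
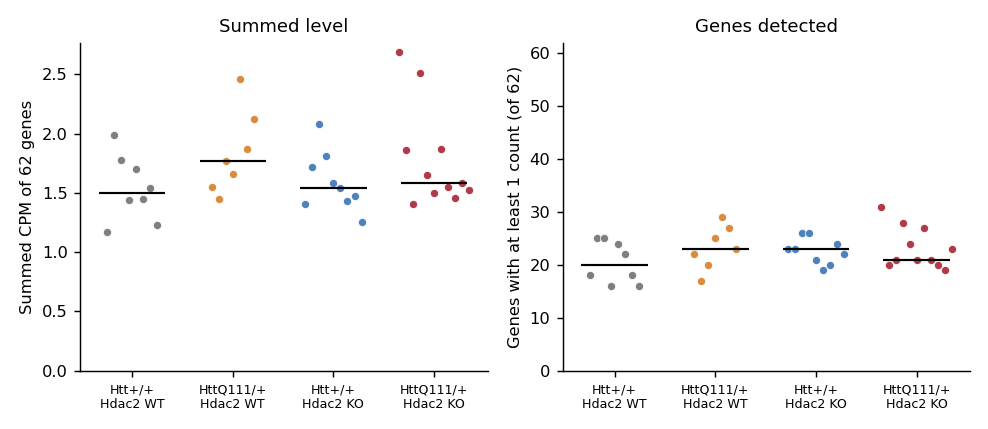
Summed CPM of the 62 genes under the filter (left) and number of them with at least 1 count (right) in each library, by genotype; points are mice and bars are medians. Sums run from 1.17 to 2.69 CPM and the 4 groups overlap in both panels.

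Single genes of this tier were scattered. The 10 with the highest count in 1 library were Hoxd1 (30 counts), Irx3 (22), Irx6 (18), Lhx9 (17), and Lhx4, Msx2, Nkx1-2, Pax1 and Pou4f3 (16 each), and Irx5 (14). Irx3, Irx5 and Irx6, patterning factors that form 1 cluster on chromosome 8, had totals of 224, 120 and 267. The interval of Nkx1-2 lies inside Fgfr2 (64.1 to 98.7 CPM), so that its 108 counts cannot be told apart from Fgfr2 reads. Pou4f3, a hair cell factor and the highest of its family, had 70 counts in Hdac2 WT and 70 in Hdac2 KO libraries. The highest genes of the other silent families were Pitx3, a factor of midbrain dopamine neurons, with 37 counts in 10 libraries, and Foxa3, a liver factor, with 31 counts in 12. Counts in Hdac2 KO libraries alone were seen for 11 genes, with totals of 2 to 11 (Tbx10, Lhx5, Pax4, Hoxb6, Pax9, Nkx1-1, Pitx1, Hoxd3, Hoxd8, Hoxa3 and Tbx22), and in Hdac2 WT libraries alone for 9, with totals of 1 to 6. Of all 8953 genes under the filter, 1218 had counts only in the 20 Hdac2 KO libraries. A further 708 had counts only in the 15 Hdac2 WT libraries.

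When every row with a count was tested, 1 of the 62 genes passed in 1 of 7 comparisons. Tbx5 (ENSMUSG00000018263, chr5:119834663-119885218), known for its part in heart and forelimb development, was higher in the average effect of Hdac2 KO (fitted log2 fold change 3.95, standard error 1.24, adjusted p = 0.0297, edgeR quasi-likelihood F test, Benjamini-Hochberg adjustment), beside 201 of 8953 genes under the filter (2.25%) called there. It had 36 counts in all. No count fell in the 8 Htt+/+ Hdac2 WT libraries, 4 counts in 2 of the 7 HttQ111/+ Hdac2 WT libraries, 12 in 4 of the 9 Htt+/+ Hdac2 KO and 20 in 6 of the 11 HttQ111/+ Hdac2 KO libraries, with at most 8 in a library. In Htt+/+ mice the pooled level with Hdac2 KO (0.0239 CPM) was 3.5-fold the level that 3 counts over the Hdac2 WT group would give. This ratio takes counts as separate reads and leaves out the error of the 12 counts, so it is not a lower bound. The newer form of the quasi-likelihood method gave an adjusted p of 0.0851. Its value without single libraries was not computed. Dlx3, which acts in skin, tooth and placenta, came next with 8 counts in 3 of 15 Hdac2 WT and 47 counts in 13 of 20 Hdac2 KO libraries (adjusted p = 0.0602 by the same test) and did not pass. In the separate comparisons of Hdac2 KO none of the 62 passed, beside 112 (1.25%) and 133 (1.49%) of 8953 in Htt+/+ and HttQ111/+ mice.

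The 28 genes that passed the filter spanned a wide range of levels. Per kilobase of exon, the order was Dlx6 (median 12.1 CPM per kb, range 9.94 to 14.7), Six3 (11.3, 8.23 to 12.6), Dlx5 (6.57, 5.28 to 7.77), Lhx2 (5.71, 4.76 to 7.24), Nkx6-2 (5.33, 3.49 to 6.62), Lhx6 (4.71, 4.08 to 5.47), Lhx8 (3.63, 2.54 to 4.67) and Nkx2-1 (2.25, 1.46 to 3.15). Reads were counted over whole gene intervals and divided by exon length alone, so the order also carries any intronic reads, whose share was not measured. The ranges of each neighbouring pair in this order overlapped apart from those of Six3 and Dlx5. Nkx2-2 and Dlx2 lay above 1 CPM per kb in the median, and the remaining 18 genes below it, down to Six4 at 0.0268. Pax6, the highest of the Pax genes, had 5.16 to 9.41 CPM, Gata2 2.29 to 6.23, Tbx3 1.07 to 3.68, Msx1 0.817 to 2.28, Foxd1 0.109 to 0.709 and Irx1 0.0363 to 0.41 CPM. The intervals of 10 of the 28 genes overlap another gene. Six3 (44.8 to 68.4 CPM) overlaps the antisense Six3os1 (18.8 to 29.6 CPM) and Dlx6 (23.6 to 34.8 CPM) lies within the antisense Dlx6os1 (41.8 to 82.8 CPM). Dlx1 (1.4 to 6.01 CPM) lies within the antisense Dlx1os (1.55 to 3.27 CPM). Xist had 102834 to 182622 counts in females and its antisense partner Tsix 20 to 132, and whether strand was used in the counting is not stated by the authors.

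**Figure D3:**
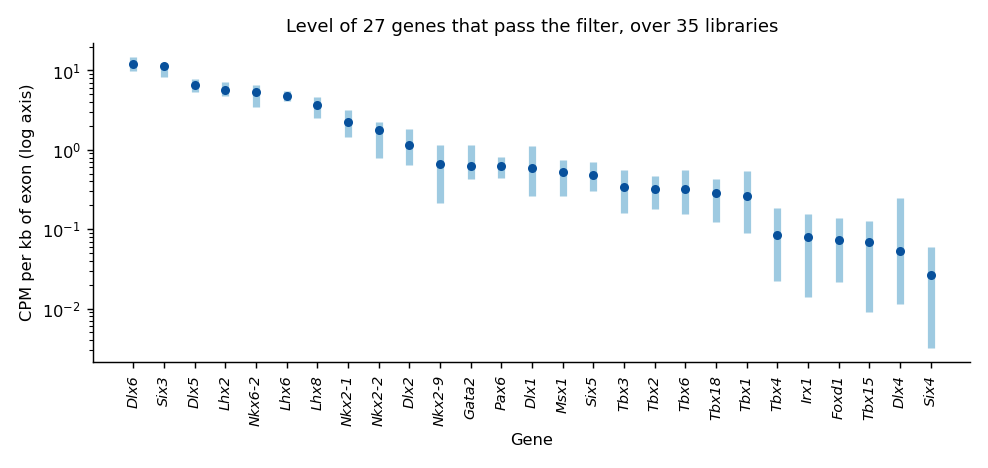
CPM per kilobase of exon of 27 of the 28 genes that pass the filter, on a log axis; points are medians and bars the range over 35 libraries. Dlx6 (12.1) and Six3 (11.3) are highest in the median and Six4 (0.0268) is lowest.

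Loss of Hdac2 in Htt+/+ mice moved 1 of the 27 genes tested. Dlx5 (ENSMUSG00000029755, chr6:6877805-6882085), a driver of GABA neuron and jaw development, rose by 0.22 on the log2 scale (standard error 0.0544, adjusted p = 0.00455, edgeR quasi-likelihood F test, Benjamini-Hochberg adjustment). Over all genes tested in this comparison, 17.8% were called. Dlx5 had 12 to 15.5 CPM (median 13.9) in Htt+/+ Hdac2 WT and 14.2 to 17.1 CPM (median 15.3) in Htt+/+ Hdac2 KO libraries, so the 9 Hdac2 KO libraries lay above the Hdac2 WT median while the ranges overlapped. Dlx6, its neighbour on chromosome 6, gave 0.04 (standard error 0.0586, adjusted p = 0.685). Standard errors over the 27 reached 0.472, and the median log2 fold change was -0.03, against 0 over all genes. Without Htt+/+ Hdac2 WT replicate 2, which had the lowest Dlx5 level, the log2 fold change of Dlx5 was 0.16 (adjusted p = 0.135). With extraction day replacing the surrogate variables it was 0.13 (adjusted p = 0.519).

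In HttQ111/+ mice 2 of 26 genes passed with loss of Hdac2, beside 16.5% of all genes tested. Tbx2 (ENSMUSG00000000093, chr11:85832551-85841948), a T-box repressor, fell by 0.52 on the log2 scale (standard error 0.161, adjusted p = 0.0242, same test). Its unadjusted levels were 1.16 to 1.59 CPM (median 1.29) in HttQ111/+ Hdac2 WT and 0.672 to 1.53 CPM (median 1.18) in HttQ111/+ Hdac2 KO libraries, and these ranges overlap. Without covariates its log2 fold change was -0.22 (adjusted p = 0.41), and it passed in 6 of 13 alternative settings. Without HttQ111/+ Hdac2 WT replicate 3, or without HttQ111/+ Hdac2 KO replicate 1, 6 or 7, its adjusted p was 0.0534, 0.0918, 0.0582 and 0.0741.

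**Figure D4:**
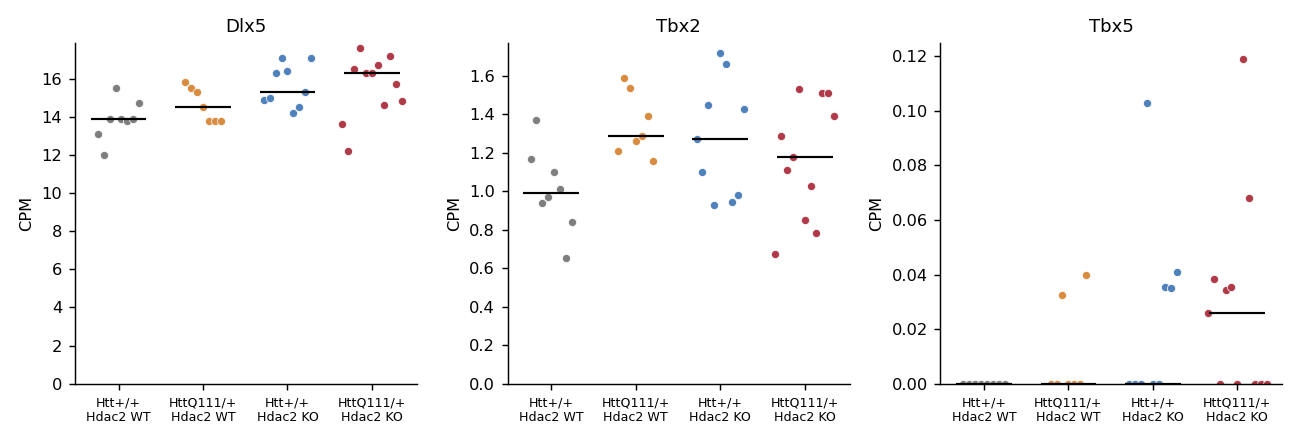
CPM of Dlx5, Tbx2 and Tbx5 in each of the 35 libraries by genotype; points are mice, bars are medians, and every axis starts at 0. The Hdac2 KO and Hdac2 WT libraries overlap for all 3 genes.

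Averaged over both Htt genotypes, 2 of 28 genes passed with Hdac2 KO, beside 25.0% of all genes tested. Dlx5 rose by 0.15 (standard error 0.0395, adjusted p = 0.00624), by the same edgeR test. For Tbx2 the value was -0.34 (adjusted p = 0.0724). With extraction day replacing the surrogate variables, Dlx5 gave 0.08 (adjusted p = 0.708). Only 2 extraction days hold both Hdac2 genotypes of 1 Htt genotype. On 27 May, 1 library of Htt+/+ Hdac2 KO had 17.1 CPM of Dlx5, above the 3 Htt+/+ Hdac2 WT libraries (13.8 to 15.5 CPM). On 25 May, 1 library of HttQ111/+ Hdac2 KO had 13.6 CPM of Dlx5, below the 2 HttQ111/+ Hdac2 WT libraries (13.8 and 14.5 CPM). Among males alone, Dlx5 gave 0.18 (adjusted p = 0.0375). Females alone were not tested. In Htt+/+ females the median of Dlx5 was 14.8 CPM with Hdac2 KO (n = 4) and 13.8 CPM with Hdac2 WT (n = 3). In HttQ111/+ females it was not higher, at 13.6 CPM with Hdac2 KO (n = 3) and 13.8 CPM with Hdac2 WT (n = 3).

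The other 26 genes did not pass in the average effect of Hdac2 KO. Among them, Six3 gave a log2 fold change of 0.05 (standard error 0.0348), Dlx6 0.04 (standard error 0.0428) and Nkx2-2, a factor of the oligodendrocyte lineage, 0.11 (standard error 0.083). The standard errors, from 0.0348 to 0.388 over the 28 genes, limit the size of change that could be seen. The log2 fold change was above 0 for 12 of the 28, against 50.7% of all genes.

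**Figure D5:**
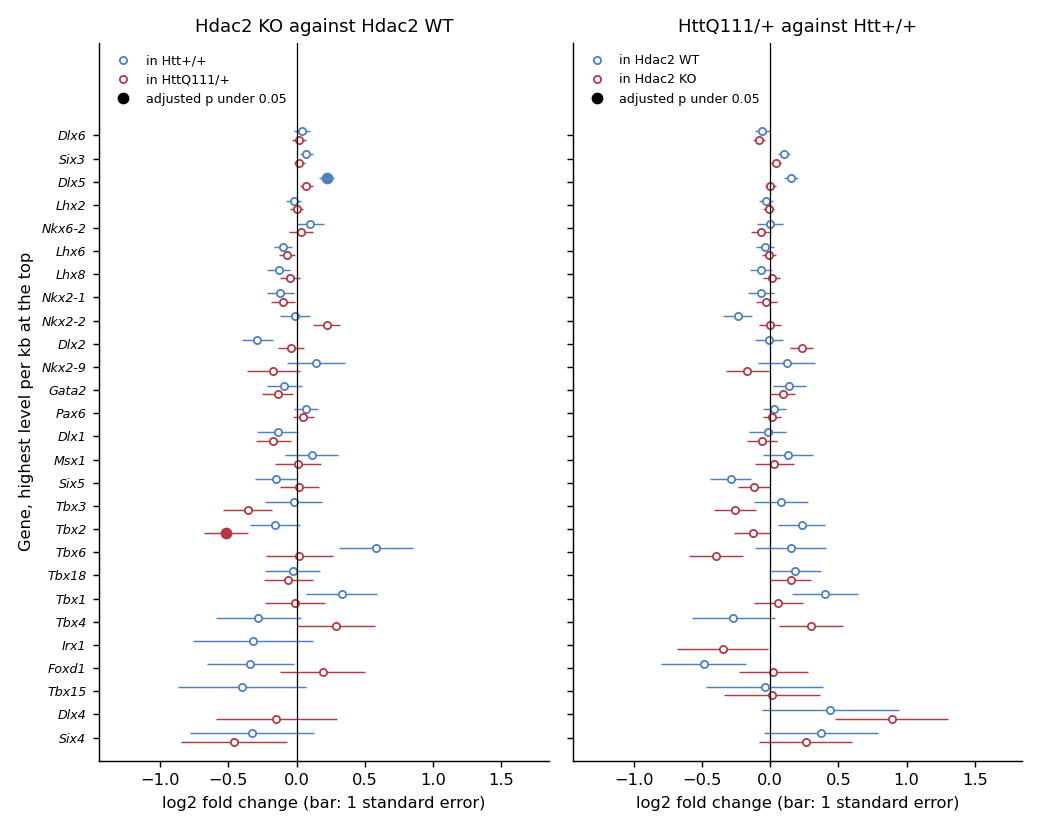
Log2 fold changes of 27 of the 28 genes that pass the filter, for Hdac2 KO against Hdac2 WT (left, within each Htt genotype) and HttQ111/+ against Htt+/+ (right, within each Hdac2 genotype); bars are 1 standard error and filled points have an adjusted p under 0.05. On the left Dlx5 (0.22) and Tbx2 (-0.52) are filled, and on the right no point is.

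The HttQ111 allele moved none of these genes past the threshold. In Hdac2 WT mice 0 of 26 were called by edgeR (0.403% of all genes tested were), with 3 at an unadjusted p under 0.05, and DESeq2 called 0 as well. These were Dlx5 (log2 fold change 0.15, standard error 0.0513, adjusted p = 0.243), Six3 (0.10, adjusted p = 0.412) and Nkx2-2 (-0.24, adjusted p = 0.393). In Hdac2 KO mice 0 of 28 were called by edgeR and 0 by DESeq2 (0.00584% of all genes by edgeR), with 2 at an unadjusted p under 0.05, Dlx2 (0.23, adjusted p = 0.48) and Dlx4 (0.89, adjusted p = 0.645). Dlx4 passed the count filter only through the HttQ111/+ groups, where it was higher, so its values are a description. In the average effect of HttQ111 0 of 28 were called by either tool (1.27% of all genes by edgeR), and Six3, Dlx5, Dlx6 and Six5 had an unadjusted p under 0.05, with log2 fold changes of 0.07, 0.07, -0.07 and -0.21. Among the 62 genes under the filter, none was called in any of these 3 comparisons, beside 1 (0.0112%), 0 and 6 (0.0670%) of 8953 genes, and 3, 1 and 1 of the 62 had an unadjusted p under 0.05. On these same libraries 5 of the 9 medium-spiny neuron markers fell in HttQ111/+ Hdac2 WT mice, among them Penk by 0.49 and Ppp1r1b by 0.28 on the log2 scale.

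None of the 28 genes passed the test of whether the effect of Hdac2 KO differed between Htt genotypes. The interaction called 0 of 28 by edgeR and 0 by DESeq2 (0.00577% of all genes by edgeR). The smallest unadjusted p belonged to Dlx5 (0.0297, adjusted p = 0.867), whose log2 fold change with Hdac2 KO was 0.22 in Htt+/+ and 0.07 in HttQ111/+ mice. The same interaction for Tbx2 was -0.37 (standard error 0.213). Of the 62 genes under the filter 0 were called and 2 had an unadjusted p under 0.05.

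The 5 gene pairs examined, chosen as neighbours or as acting in 1 lineage, varied together over all mice. No other pairs were taken as a background. Dlx1 and Dlx6 each lie within an antisense gene, and the part of antisense reads in these correlations was not measured. Over the 35 libraries, with group means removed on the log2 CPM scale, Dlx1 and Dlx2 had Pearson's r = 0.84 and Spearman's rho = 0.86 (permutation p = 1e-05 for both, the smallest that 100000 permutations can give, adjusted 1.67e-05 and 5e-05 over 5 pairs). Without the 2 libraries farthest from the median of Dlx1, r was 0.82. Animal IDs fall into 3 series named by their first letter, A, V and Z, and within them r was 0.97 (n = 8), 0.86 (n = 16) and 0.52 (n = 11). Dlx5 and Dlx6 had r = 0.68 and rho = 0.64 (permutation p = 1e-05 and 7e-05, adjusted 1.67e-05 and 0.000117), with 0.6 without 2 libraries and 0.7, 0.5 and 0.49 within the series. Lhx8, which specifies cholinergic neurons, and Nkx2-1 had r = 0.73 and rho = 0.68 (permutation p = 1e-05 and 3e-05, adjusted 1.67e-05 and 7.5e-05), with 0.65 without 2 libraries and 0.77, 0.84 and 0.6 within the series. Nkx2-2 and Nkx6-2, both of oligodendrocytes, had r = 0.69 and rho = 0.59 (permutation p = 2e-05 and 0.00025, adjusted 2.5e-05 and 0.000313), with 0.6 without 2 libraries and 0.95, 0.56 and 0.41 within the series. For Lhx6 and Lhx8 r was 0.5 and rho 0.56 (permutation p = 0.00209 and 0.00058, adjusted 0.00209 and 0.00058) with 0.55 without 2 libraries, but it did not hold in the Z series (0.48, 0.35 and 0). The median of Dlx1 was 3.28, 3.46 and 1.97 CPM in A, V and Z, and that of Dlx2 3.13, 3.61 and 2.47 CPM, a difference that was not tested.

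Developmental regulators outside these families were counted in the same way. Of a list of 92, 10 had no count and 42 passed the filter, and with Hdac2 KO 2 rose and 1 fell in each Htt genotype, of 40 tested in Htt+/+ and 42 in HttQ111/+ mice, beside the 17.8% and 16.5% called over all genes. Phox2a (chr7:101818313-101822724), which specifies noradrenergic neurons, came from 0 to 0.218 CPM (median 0.0559) in Htt+/+ Hdac2 WT to 0.206 to 0.499 CPM (median 0.348) in Htt+/+ Hdac2 KO libraries, a log2 difference of 2.08 (standard error 0.526, adjusted p = 0.00502, same test). In HttQ111/+ mice it had 4 counts in 2 of 7 Hdac2 WT libraries (0 to 0.0399 CPM) and 152 counts in 11 of 11 Hdac2 KO libraries (0.148 to 0.349 CPM), without overlap (fitted log2 fold change 4.88, standard error 0.708, adjusted p = 8.61e-06). Its interval shares 92 bases with Inppl1 on the other strand (36.7 to 51.3 CPM), whose log2 fold changes were 0.06 and 0.13. Phox2a had libraries at 0 in both Hdac2 WT groups and passed the count filter only through the Hdac2 KO groups, where it was high, so its values are given as a description and its p as the fit gave it. Onecut2, a factor of neuron and liver development, had 70.1 to 96.7 CPM in Htt+/+ Hdac2 WT and 131 to 195 CPM in Htt+/+ Hdac2 KO libraries, with no overlap, and 61 to 109 and 75.8 to 164 CPM in HttQ111/+ mice, where the ranges overlapped. Its log2 fold change was 0.68 (standard error 0.0882, adjusted p = 1.21e-06) in Htt+/+ and 0.75 (standard error 0.0772, adjusted p = 3.42e-08) in HttQ111/+ mice. Gbx1, a spinal cord and forebrain factor, fell by 0.69 and 0.75 on the log2 scale (adjusted p = 0.0153 and 0.00438). Other settings were not run for the genes outside the 122. HttQ111 moved none of the 92 past the threshold in either Hdac2 genotype.

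Subunits of the complexes that hold such genes silent, and their partners, are read against the same 17.8% and 16.5% of all genes called with Hdac2 KO in Htt+/+ and HttQ111/+ mice. Of 11 PRC2 genes, Ezh1, a methyltransferase subunit, fell by 0.13 in Htt+/+ (adjusted p = 0.0118) and by 0.11 in HttQ111/+ mice (adjusted p = 0.00968), and Aebp2 fell in Htt+/+ mice by 0.13 (adjusted p = 0.033), while Phf19 rose by 0.48 in the average effect (adjusted p = 0.0127). Of 18 PRC1 genes, 4 rose and 1 fell in each Htt genotype: Phc1, Pcgf2, Cbx8 and Rnf2 rose by 0.18, 0.20, 0.29 and 0.19 in Htt+/+ mice, and Cbx7 fell by 0.24. Of 6 tested enzymes that oppose Polycomb, Kdm6a (0.14, adjusted p = 0.0439) and Kdm6b (0.24, adjusted p = 0.0453), which remove the PRC2 mark, rose in Htt+/+ mice, and Kmt2a fell by 0.12 in HttQ111/+ mice (adjusted p = 0.0329). Of 11 homeodomain cofactors, Meis3 rose in both Htt genotypes (0.14 and 0.17), Pknox2 rose (0.26) and Meis2, abundant in striatum, fell by 0.15 in Htt+/+ mice, and Pknox1 fell by 0.23 in HttQ111/+ mice. Of 3 tested long non-coding RNAs of these loci, Six3os1 rose in the average effect of Hdac2 KO (0.09, standard error 0.0307, adjusted p = 0.0333). The HttQ111 allele changed none of these 5 lists past the threshold in either Hdac2 genotype, and Meis2 fell by 0.10 in its average effect (adjusted p = 0.0281).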

How the data were processed

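Striatal RNA from 35 mice was sequenced in paired ends, and the authors aligned reads with GSNAP and counted unique alignments with bedtools over whole gene intervals, introns included. The deposited values are raw counts per gene. Of 39109 entries, 92 spike-ins, 2 mitochondrial rRNA genes and 6152 genes spanning up to 250 nt were removed. Genes with at least 6 counts throughout 1 compared group were tested with edgeR 4.0.16 (quasi-likelihood F test, older form, TMM scaling) in R 4.3.3, with 9 surrogate variables from sva 3.50.0 and Benjamini-Hochberg adjustment over all genes tested, threshold 0.05. A second fit took all 26299 genes with a count. DESeq2 1.42.0 was an alternative. In simulated counts for the average effect of Hdac2 KO over 17346 genes, 77.8% of changes of 0.5 and 94.5% of changes of 1 (log2) were recovered. Of 181 calls there, 7 were false. Changed genes were drawn from all levels and no extraction-day differences were simulated, so these rates do not give the power for the genes examined here. The members and gene lists were chosen with earlier results of these data known. Values were printed for each gene called, the highest gene of each family, the 10 genes under the filter with the highest single count, the genes overlapping these, and listed genes called, except that some genes are not reported here. Genes at an unadjusted p under 0.05 and Dlx3 were added after their values were seen. Each mouse is a separate animal. Intervals and limits cover counting error only.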

Additional observations from a re-analysis of the deposited data

Results flagged for a closer look

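Among 13 genes with printed values, 39 groups of 7 to 9 libraries were examined, leaving out the group of 11, and 3 had 1 library set apart from the others by Dixon's criterion. Gata2, a blood and GABA neuron factor, had 6.23 CPM in Htt+/+ Hdac2 KO replicate 9, and the other libraries of that group had 2.29 to 4.21 CPM. Msx1, a craniofacial factor, had 2.03 CPM in Htt+/+ Hdac2 KO replicate 5, against 1.25 to 1.65 CPM in the others. Six3 had 44.8 CPM in HttQ111/+ Hdac2 WT replicate 7, against 59.1 to 67.9 CPM in the others. At the 95% level, chance alone sets apart about 5% of groups.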

How the results depend on the processing

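The counts of genes called with Hdac2 KO moved with the covariates and with the libraries included. In Htt+/+ mice the count of 1 became 2 with ID series, 0 with extraction day, 2 with no covariates, 2 with sex and 3 with only the 2 groups compared. In HttQ111/+ mice the count of 2 became 0 with ID series, extraction day, no covariates, sex and males only. In the average effect the count of 2 became 5 with ID series, 0 with extraction day, 4 with no covariates, 4 with sex and 1 with males only. For the genes under the filter, the count of 1 became 0 with the newer form of the test and 6 with no covariates. The share of all genes called in each setting is not given here, so these counts are not read as a result about the members. Extraction day was almost fully split by Hdac2 genotype. The cause of these moves was not tested. Over 45 pairs of libraries with the same replicate number, the correlation of deviations from the group means was -0.206 to 0.289. Its median was 0.0418, against -0.00981 for pairs with other numbers. Of 35 libraries, 8 correlated best with their own number, and whether this exceeds chance was not tested. The replicate block in place of the surrogate variables gave 2 calls in Htt+/+ mice, 0 in HttQ111/+ mice and 1 (Dlx4) in the average effect of HttQ111. Dlx4 passed the count filter only through the HttQ111/+ groups, where its lowest count was 6 in each. Its lowest counts in the Htt+/+ groups were 2 (Hdac2 WT) and 3 (Hdac2 KO), so this call is given as a description. Tbx2 turned positive in Htt+/+ mice with ID series (0.26), extraction day (0.12), no covariates (0.34), only the 2 groups (0.32), the replicate block (0.31) and sex (0.34), and in the average effect with ID series (0.02), no covariates (0.06), the replicate block (0.03) and sex (0.06). Leaving out 1 library gave 0 to 2 calls in Htt+/+ mice, 1 to 3 in HttQ111/+ mice and 1 to 3 in the average effect of Hdac2 KO, and 0 to 0 in the comparisons of HttQ111 and the interaction. In the average effect Tbx2 passed without HttQ111/+ Hdac2 WT replicate 1 (adjusted p = 0.0353) and without Htt+/+ Hdac2 WT replicate 1 (0.0366) or 9 (0.0487). Scaling by RLE, a minimum of 10 counts, no filter, short genes kept and DESeq2 left these counts within 1.5 times.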

Other observations

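Single markers of other cell types changed with Hdac2 KO. In its average effect, Clic6 of choroid plexus rose by 0.39 (adjusted p = 0.000126, edgeR), Trpc4 and Gpr165 of septum or pallidum by 0.26 and 0.29, Cux2 of cortical projection neurons by 0.33 and Tagln of mural cells by 0.37, all on the log2 scale. Nos1 and Sst of GABA interneurons fell by 0.17 and 0.11. Of all genes tested in the average effect, 25.0% were called. The median log2 fold change there was -0.14 over 5 septum or pallidum and -0.05 over 8 cortical projection neuron markers. It was -0.07 over 8 mural cell and -0.11 over 7 GABA interneuron markers. Ttr fell by 3.12 in Htt+/+ mice (adjusted p = 0.0359), and Mef2c by 0.14 in HttQ111/+ mice. The median log2 fold change of the tested choroid plexus markers was -0.58 in Htt+/+ mice, 0.05 in HttQ111/+ mice and -0.49 in the average effect. The summed level of 7 GABA interneuron markers was 186 to 270 CPM in Hdac2 WT and 176 to 239 CPM in Hdac2 KO libraries, and that of 5 septum or pallidum markers was 13.4 to 20 and 15.9 to 22.2 CPM. With HttQ111, Aqp4 of astrocytes fell by 0.26 in Hdac2 WT mice (adjusted p = 0.0122) and Ecel1 of cholinergic interneurons rose by 0.12 in the average effect (adjusted p = 0.0336). Aqp4 was the only call among 6 astrocyte markers, whose median log2 fold change there was -0.02. Ecel1 was the only call among 4 cholinergic interneuron markers (median 0.07). Of all genes tested, 0.403% and 1.27% were called in these comparisons. The part of these markers in the values of Dlx5 and Tbx2 was not tested.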
